A study of Arabidopsis thaliana with 4 samples.

Results

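The untreated root tip of Arabidopsis thaliana was described from 2 control libraries, taken 2 h and 12 h after seedlings had been moved to fresh plates. All genes with at least 1 RPKM (read counts scaled by gene length and library size) in either library were included, which gave 18775 of the 33602 genes of the deposited table. Both libraries came from wild-type Col-0 seedlings aged 5 days, grown on half-strength MS medium with sucrose under long days and transferred to the same medium without any drug. The terminal 3 mm of the roots was cut off and its total RNA was sequenced, with 1 library a group. A second pair of libraries, from root tips kept for 2 h or 12 h on 0.5 µM narciclasine, an alkaloid that blocks the eukaryotic ribosome, was used only for a last comparison. Because each group is a single library, replicate error could not be measured and no test was made; each statement describes these libraries. Time after transfer, the hour of day and the age of the seedlings moved together between the libraries and cannot be told apart.

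The root tip holds the root cap, the meristem with the quiescent centre at its heart, the elongation zone and the start of the differentiation zone. Cells leave the meristem, expand, lay down wall glycoproteins and then form root hairs, the Casparian strip of the endodermis and xylem. Roots of Brassicales also build ER bodies, spindle-shaped stores of beta-glucosidase that is released on damage and is held in large complexes with jacalin-related lectins.

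The library sizes recovered from the RPKM values were 14541412 reads at 2 h and 11880278 reads at 12 h, of which 98.0% and 97.8% lay on genes. The median gene had 12.1 RPKM at 2 h and 12.0 RPKM at 12 h. Many markers of the labelled tissue were present. The Casparian strip gene CASP1 stood at 417 and 458 RPKM, the root cap factor BRN1 at 21.3 and 15.3 RPKM and the root hair wall gene PRP3 at 314 RPKM at 2 h. Some markers were under 1 RPKM in both libraries, such as ESB1 of the endodermis list with 0.472 and 0.315 RPKM. Transcripts of the photosynthetic apparatus were present at low levels, and their values are given with the markers below. The filter admitted genes whose higher value was 1.0006 RPKM and kept out genes whose higher value was 0.9992 RPKM.

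Cell wall glycoproteins led the transcriptome of the untreated root tip. EXT3 (AT1G21310), an extensin that scaffolds the cell wall, had 6633 RPKM at 2 h and 8322 RPKM at 12 h, the highest level in both libraries. AT2G43150, a proline-rich extensin-like gene, followed with 4789 and 5823 RPKM. PYK10 (AT3G09260), the beta-glucosidase of root ER bodies, was the third by the mean of both libraries, with 2298 and 4890 RPKM. At 2 h alone the dehydrin genes COR47 and AT1G54410 stood above it. These leaders were not a dominant class, since the 20 most abundant genes together held 5.60% of summed RPKM at 2 h and 6.58% at 12 h, and the 1000 most abundant held 49.9% and 49.8%.

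The rest of the 20 most abundant genes fell into a few kinds. Dehydrins and other proteins that protect cells from water loss were 4 of them. AT1G54410 had 2833 and 3204 RPKM, COR47 (AT1G20440) 2963 and 2568 RPKM, ERD14 (AT1G76180) 1301 and 1461 RPKM, and AT2G23120, a late embryogenesis abundant (LEA) protein of group 6, 1634 and 883 RPKM. Aquaporins, the water channels of plant membranes, were 3 more. GAMMA-TIP (AT2G36830) and TIP2 (AT3G26520) of the vacuole had 1554 and 1940 RPKM and 1370 and 1711 RPKM, and PIP1B (AT2G45960) of the plasma membrane had 1363 and 1545 RPKM. The methyl group cycle was represented by HOG1 (AT4G13940), S-adenosylhomocysteine hydrolase, and by ATMS1 (AT5G17920), a methionine synthase. HOG1 had 1555 and 1173 RPKM and ATMS1 had 1402 and 1170 RPKM. CCoAOMT1 (AT4G34050), a methyltransferase of lignin synthesis, had 1540 and 1529 RPKM. GRP7 (AT2G21660), a glycine-rich RNA-binding protein under clock control, stood at 1853 and 1814 RPKM. GSTU19 (AT1G78380), a glutathione transferase, had 1540 and 1671 RPKM, and AAC1 (AT3G08580), the ADP/ATP carrier of mitochondria, 1646 and 1456 RPKM. Translation elongation factor EF1A (AT5G60390) had 1446 and 1117 RPKM, and the extensin-like gene AT3G28550 had 1237 and 1496 RPKM.

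Of these 20 genes, 3 differed between the libraries by the rule given in the next paragraph, all higher at 12 h. They were PYK10, its lectin partner PBP1 (AT3G16420; 873 and 1807 RPKM) and the class III peroxidase gene AT2G37130 (766 and 1768 RPKM). AT2G23120 was the furthest in the other direction and stayed under the threshold, 1.85-fold lower at 12 h (1.80 to 1.91). Ranked in each library alone, the lists of the 20 highest shared 12 genes.

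**Figure D1:**
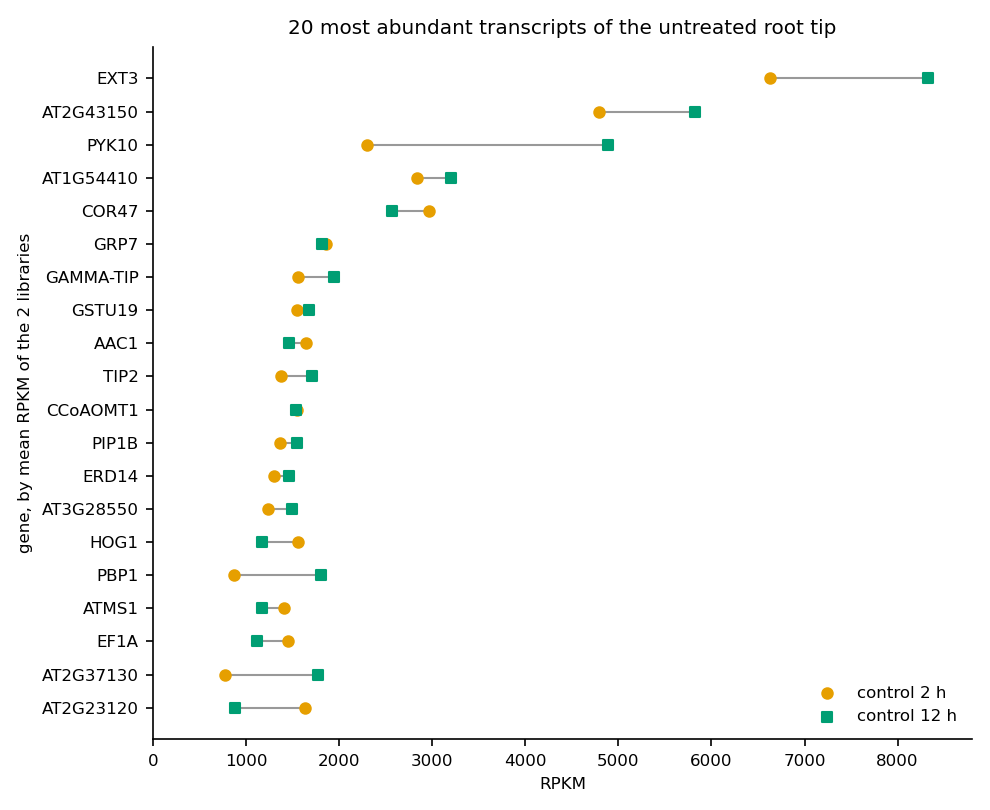
The 20 genes of highest mean RPKM in untreated root tips, with circles for the control library at 2 h and squares for that at 12 h, on a linear RPKM axis. EXT3 lies at 6633 and 8322 RPKM, and PYK10, PBP1 and AT2G37130 show the widest relative gaps, each with the 12 h library above the 2 h library.

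Most of the transcriptome was alike at both times. To count as differing, a gene needed an RPKM ratio of at least 2-fold, and the exact 95% Clopper-Pearson interval of the ratio, computed from recovered reads, had to exclude 1. Ranges in parentheses after a fold are that interval, which covers counting error only. A gene under 1 RPKM in either library entered the comparison only through the other, which fixed the direction of any difference. By this rule 748 of 18775 genes (3.98%) were higher at 12 h and 331 (1.76%) were lower, 1079 together (5.75%), and 15034 genes (80.1%) lay within 1.5-fold. The median log2 ratio of all genes was -0.05. Among the 1617 genes with at least 100 RPKM in either library, 70 were higher (4.33%) and 20 were lower (1.24%). Genes that differed had lower levels than the rest, with a median of 6.64 RPKM for those higher and 3.52 RPKM for those lower, against 12.5 RPKM for the others.

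**Figure D2:**
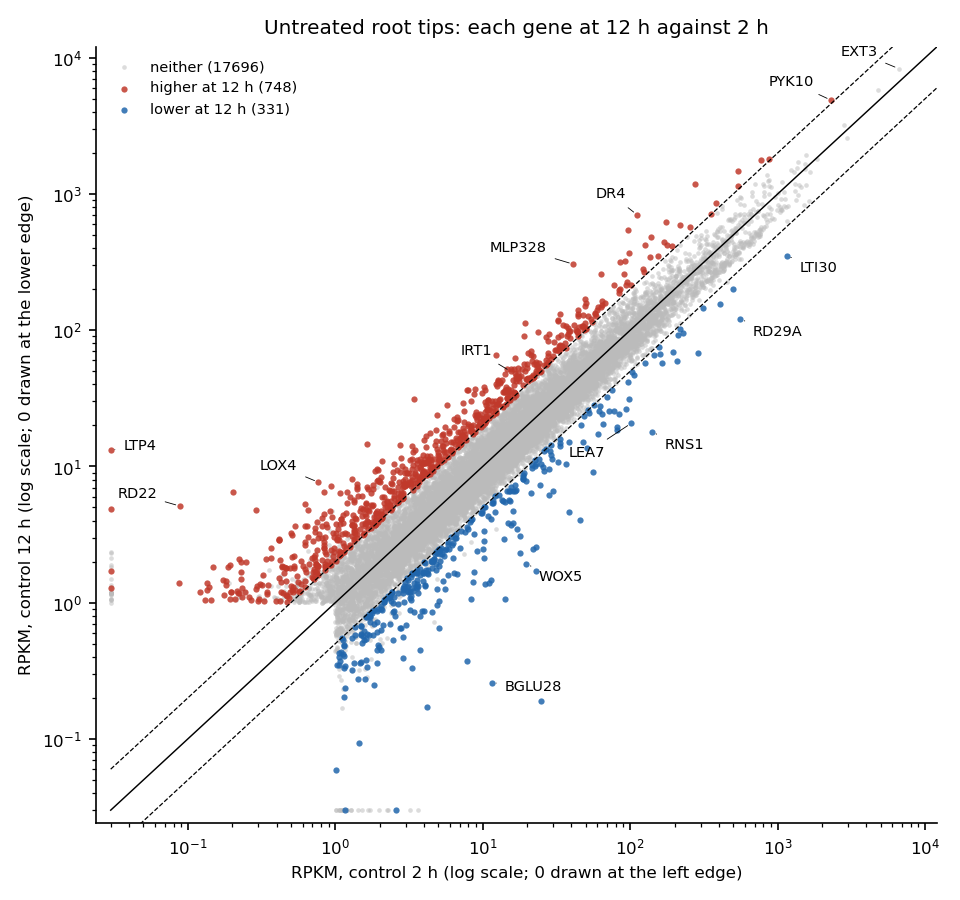
RPKM of each of the 18775 genes in the control library at 12 h (vertical, log scale) against that at 2 h (horizontal, log scale), with the line of equality, dashed lines at 2-fold, and genes at 0 drawn on the edge. Red points are the 748 genes higher at 12 h and blue points the 331 lower; grey points beyond the dashed lines have intervals that include 1.

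Among coding genes with a symbol, those whose interval bound lay furthest above equality included lipid transfer proteins, lipoxygenases, lectins and small proteins of defence and drought. LTP4 (AT5G59310), a lipid transfer protein of the wall, had no read at 2 h and 99 reads (13.2 RPKM) at 12 h. With the 2 h library set to a floor of 3 reads, it was 40.4-fold higher. The counting interval, which allows more than 3 reads behind the 0, has a lower limit of 32.2-fold. Its neighbour LTP3 (AT5G59320) had 0.202 and 6.55 RPKM, LTP2 (AT2G38530) 1.64 and 14.7 RPKM and LP1 (AT2G38540), also called LTP1, 0.292 and 4.77 RPKM. All 4 were low in the narciclasine libraries as well, where the highest value was 3.55 RPKM, of LTP2 at 12 h. RD22 (AT5G25610), a drought-responsive BURP domain protein, rested on 2 reads at 2 h and 95 at 12 h (58.1-fold, 15.7 to 487). RD22, LTP4, LTP3 and LP1 passed the level filter only through the 12 h library, which fixed their direction. Neighbouring LTP genes are similar in sequence, and the division of reads between them is uncertain.

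Lipid transfer proteins as a family held 53 compared genes, of which 11 were higher and 6 lower, with 41 ratios above 1 and a median log2 ratio of 0.45. Over all genes 3.98% were higher and 1.76% lower. Of the higher members, LTP4, LTP3, LP1, AT4G12490 and AT5G01870 passed the level filter only through the 12 h library, which fixed their direction. AT4G12530, a lower member, passed only through the 2 h library. The most abundant member that differed was AT4G12545, at 85.6 RPKM at 2 h and 315 RPKM at 12 h (3.67-fold, 3.39 to 3.98). EARLI1, a cell wall protein of the same family, had 22.2 and 56.1 RPKM. LTP5 was among the lower members with 24.6 and 7.28 RPKM.

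Several genes of the ER body and its lectin complex were higher at 12 h. The list was drawn up after the values had been seen and is a description. Of 16 compared genes, 7 were higher, none lower, and the median log2 ratio was 0.76. PYK10 was 2.13-fold higher (2.1 to 2.16) and PBP1, the lectin that binds it, 2.07-fold (2.03 to 2.11). Larger ratios were seen in JAL33 (AT3G16450), at 96.8 and 543 RPKM (5.61-fold, 5.33 to 5.91), and JAL22 (AT2G39310), at 19.2 and 112 RPKM (5.83-fold, 5.26 to 6.48). JAL31 had 49.7 and 114 RPKM, JAL35 48.0 and 107 RPKM, and TSA1, a structural protein of ER bodies, 2.17 and 5.07 RPKM.

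The other 9 compared members were under the threshold. NAI1, the bHLH factor that controls ER body formation, had 55.7 and 65.1 RPKM, and NAI2, a protein needed to build the body, had 373 and 508 RPKM. The beta-glucosidases BGLU21 and BGLU22 had 688 and 526 RPKM and 310 and 341 RPKM. Summed over the list, RPKM was 6170 at 2 h and 10732 at 12 h. All 25 compared jacalin or mannose-binding lectins, taken by product name, had 5 higher and 1 lower, with 13 ratios under 1 and a median log2 ratio of -0.15. BGLU21, BGLU22 and PYK10 are similar genes, and PYK10 overlaps another annotated gene, so part of their reads may be misassigned.

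Fewer cells of a type and less RNA per cell cannot be told apart in these bulk samples, here and in the groups that follow. Major latex-like and polyketide cyclase proteins, small ligand-binding proteins of the Bet v 1 fold, showed 11 of 36 compared genes higher and none lower, with a median log2 ratio of 0.54. Their summed RPKM was 1712 at 2 h and 4570 at 12 h. MLP34 (AT1G70850) had 541 and 1481 RPKM, AT4G23670 had 274 and 1188 RPKM (4.34-fold, 4.18 to 4.51) and MLP329 had 174 and 621 RPKM. MLP328 (AT2G01520) had the largest fold of any gene higher at 12 h that reached 100 RPKM in either library, with 41.1 RPKM at 2 h and 306 RPKM at 12 h (7.43-fold, 6.74 to 8.20). This family was also gathered after its members had been seen.

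Both triterpene gene clusters of the Arabidopsis root were higher at 12 h. Thalianol and marneral are root triterpenes, and the enzymes that make and oxidise each are encoded side by side on chromosome 5. The thalianol synthase gene THAS1 (AT5G48010) had 98.1 and 368 RPKM (3.75-fold, 3.61 to 3.90). Its neighbours CYP708A2 (AT5G48000), thalianol hydroxylase, and CYP705A5 (AT5G47990), the desaturase of the pathway, had 92.1 and 321 RPKM and 218 and 591 RPKM. In the marneral cluster MRN1 (AT5G42600), the synthase, had 14.7 and 51.7 RPKM, CYP71A16 (AT5G42590), marneral oxidase, 55.1 and 114 RPKM, and CYP705A12 (AT5G42580) 15.6 and 52.0 RPKM. All 6 genes met the rule, the list again having been chosen after its values were known. Cytochromes P450 as a whole had 21 of 142 compared genes higher and 1 lower, with a median log2 ratio of 0.19, and these clusters gave 4 of the 21.

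Runs of at least 2 neighbouring protein-coding genes that differed the same way held 104 of the 741 coding genes that were higher (14%) and 17 of the 320 that were lower (5.31%). The runs of 3 or more included both triterpene clusters and PROPEP2, PROPEP1 and PROPEP3, precursors of danger peptides. In the other direction the only run of that length held AT5G12010, HSP17.6II and HSP17.6A, the latter pair small heat shock proteins. How often neighbours coincide without any link was not tested.

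**Figure D3:**
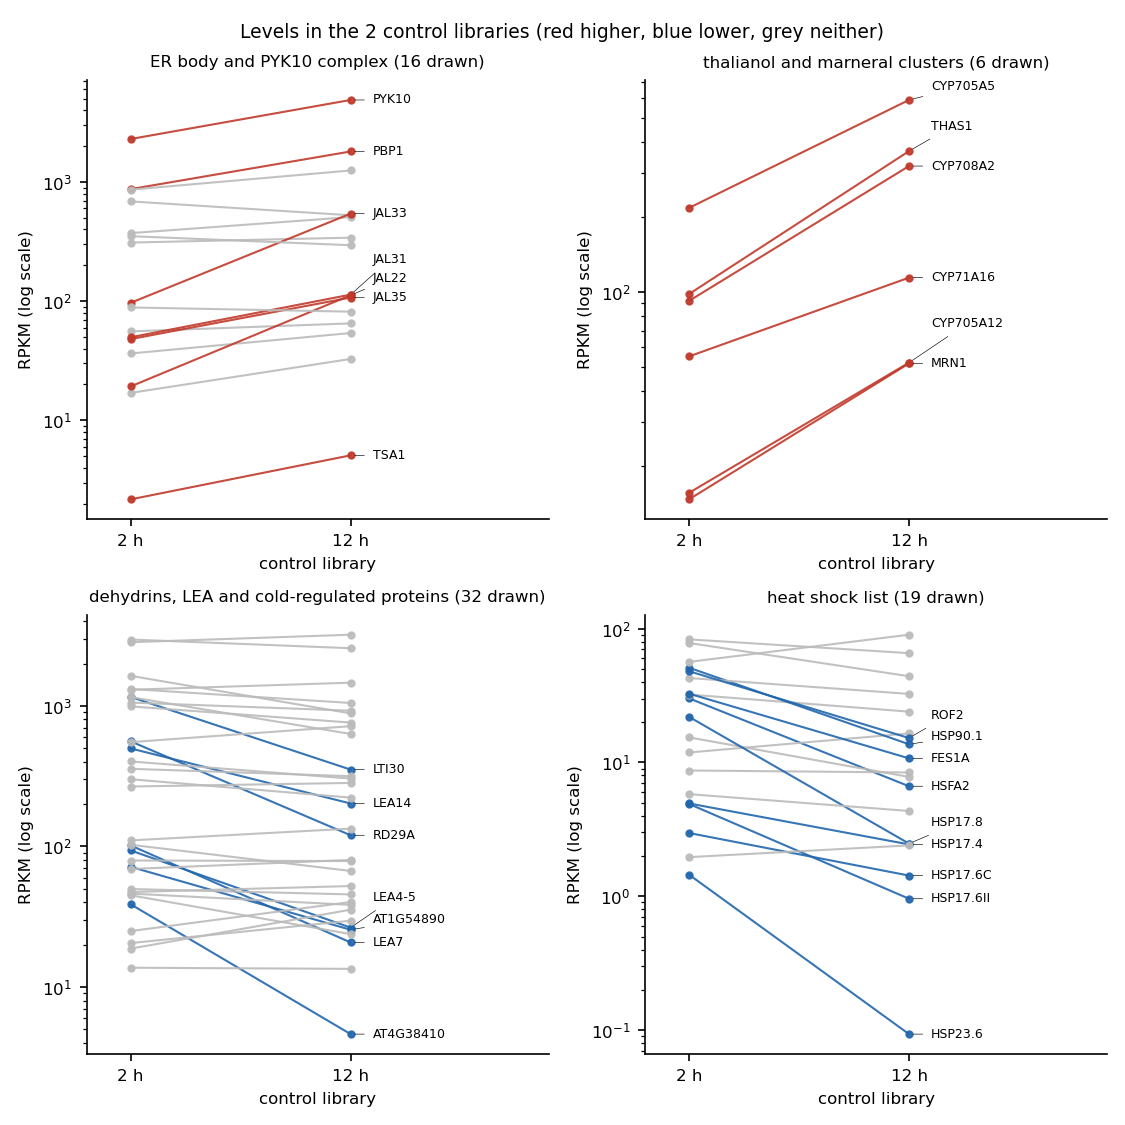
RPKM at 2 h and 12 h (log scale) of the compared members of the ER body and PYK10 list (16), the triterpene clusters (6), dehydrins, LEA and cold-regulated proteins with a mean of at least 10 RPKM (32) and the heat shock list (19), with a line for each gene. Lines of genes that differed are red where higher at 12 h and blue where lower; all 6 triterpene genes are red, and in the lower panels every coloured line is blue.

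Genes with other roles, from abundant to scarce, were also among the largest ratios. DR4 (AT1G73330), a drought-repressed protease inhibitor-like gene, had 111 RPKM at 2 h and 706 RPKM at 12 h (6.34-fold, 6.02 to 6.70), and the trypsin inhibitor TI1 (AT2G43510) 12.3 and 66.3 RPKM. LAC7 (AT3G09220), a laccase, had 63.7 and 257 RPKM. AT1G19900, a glyoxal oxidase-related gene, had 33.7 and 131 RPKM, and SZF1 (AT3G55980), a zinc finger protein induced by salt, 32.3 and 117 RPKM. ICS2 (AT1G18870), an isochorismate synthase, had 4.93 and 23.7 RPKM and overlaps another annotated gene. SULTR3;5 (AT5G19600), a sulphate transporter, had 0.417 and 2.88 RPKM and passed the level filter only through the 12 h library.

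Cell wall enzymes differed in both directions. Of 51 compared class III peroxidases, which cross-link wall polymers and make or use hydrogen peroxide, 7 were higher and 3 lower, and their summed RPKM was 7239 at 2 h and 9845 at 12 h. Membership rests on the product name alone, which also takes in DOX1 (389 and 729 RPKM). PRXCB (AT3G49120) had 126 and 421 RPKM (3.35-fold, 3.19 to 3.51), and AT2G39040 had 37.9 and 93.4 RPKM. Expansins, which loosen walls during growth, had 6 of 21 members lower and 2 higher, with a median log2 ratio of -0.44. EXPA17 (AT4G01630) had 212 and 91.5 RPKM, EXPA14 (AT5G56320) 107 and 46.6 RPKM and EXPA1 (AT1G69530) 56.6 and 28.3 RPKM. EXLB1 (AT4G17030) was a higher member with 5.54 and 15.9 RPKM. None of 23 xyloglucan transglycosylases met the rule (median log2 ratio -0.06). Over all genes 3.98% were higher and 1.76% lower, shares at which a family of that size would hold few members or none.

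Arabinogalactan and extensin proteins were taken by product name, together with genes named only as proline-rich or hydroxyproline-rich proteins. These 192 compared genes had 9 higher and 3 lower, shares near those of all genes (3.98% and 1.76%), with a median log2 ratio of 0.06. The summed RPKM of this family was 31809 at 2 h and 36375 at 12 h, 4.39% and 5.05% of the total. PELPK1 (AT5G09530) had 121 and 281 RPKM and AT4G38080 had 137 and 342 RPKM. Among 25 aquaporins 21 had ratios above 1, but only PIP1;5 (AT4G23400) met the rule, with 193 and 418 RPKM.

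Genes of rapid stress and immune signalling were higher at 12 h in several lists. List counts give the members that passed the level filter, 11 of 12 listed here, 19 of 22 for heat shock and 11 of 16 for the green shoot. Of 11 compared stress ERF factors 7 were higher and 1 lower, with a median log2 ratio of 1.40. ERF109 (AT4G34410) had 7.94 and 36.6 RPKM, ERF6 (AT4G17490) 20.4 and 67.7 RPKM and ERF1A (AT4G17500) 44.6 and 127 RPKM. ERF115, a regulator of stem cell replenishment, was the lower member and rested on low levels, 1.3 and 0.319 RPKM. It passed the level filter only through the 2 h library. Of 17 immune genes 11 were higher and 1 lower, with a median of 1.12. WRKY33 (AT2G38470) had 49.6 and 151 RPKM and PROPEP3 13.0 and 41.0 RPKM. The exception was FRK1 (AT2G19190), a receptor kinase induced by bacterial flagellin, with 11.3 RPKM at 2 h and 1.47 RPKM at 12 h (7.74-fold lower, 5.72 to 10.7).

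The touch and calcium list had 4 of 12 members higher and none lower, CML37 (AT5G42380), a calmodulin-like protein, having 7.39 and 29.2 RPKM and the kinase MPK3 (AT3G45640) 17.5 and 52.5 RPKM. Of 14 jasmonate response genes 4 were higher, among them the repressor JAZ7 (AT2G34600; 1.93 and 9.57 RPKM) and VSP1 (AT5G24780; 3.36 and 12.8 RPKM), a storage protein. ST2A, a sulphotransferase of hydroxyjasmonate, was lower at 38.5 and 15.0 RPKM. In jasmonate synthesis the lipoxygenases LOX4 (AT1G72520) and LOX3 (AT1G17420) were higher, with 0.769 and 7.66 RPKM and 0.512 and 3.16 RPKM. Both passed the level filter only through the 12 h library, which fixed their direction. The list's median was -0.03 over 8 genes.

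**Figure D4:**
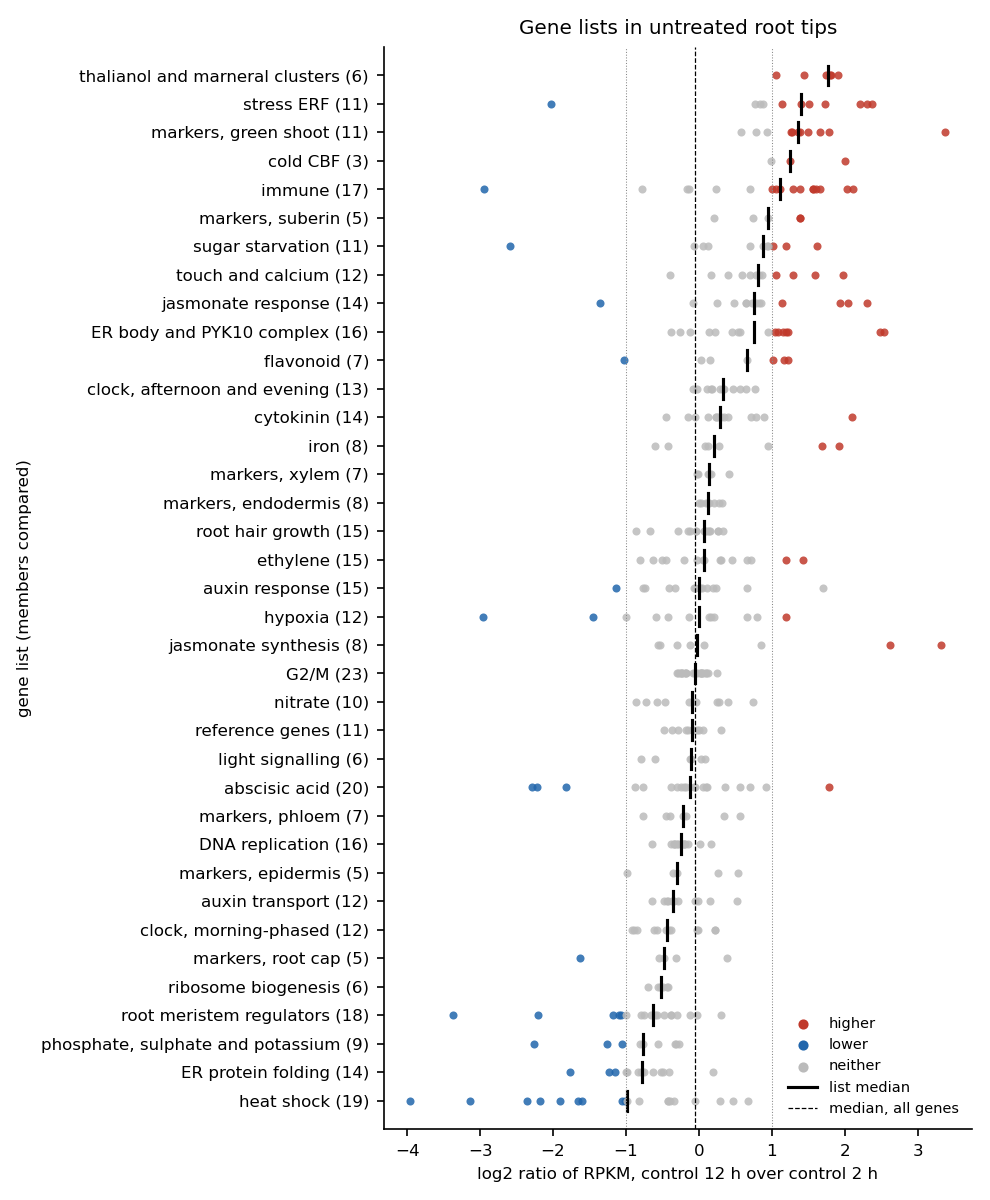
Log2 ratio of RPKM, control 12 h over control 2 h, of each compared member of 37 gene lists, ordered by the list median (black bars), with the number compared in parentheses. The dashed line is the median of all genes (-0.05) and dotted lines mark 2-fold; the triterpene clusters (1.77) and stress ERF factors (1.40) lie highest and the heat shock list (-0.98, or -0.62 for members of at least 5 RPKM) lowest.

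Among coding genes with a symbol, BGLU28 (AT2G44460) led those lower at 12 h by the interval bound. This beta-glucosidase gene, induced by sulphur starvation, had 11.6 RPKM at 2 h and 0.259 RPKM at 12 h. The latter came from 6 reads (44.7-fold lower, 20.3 to 123). RNS1 (AT2G02990), a secreted ribonuclease of phosphate starvation and wounding, had 141 RPKM at 2 h and was 7.92-fold lower at 12 h (6.89 to 9.14). PTR1 (AT3G54140), a dipeptide transporter, had 80.8 and 18.5 RPKM, and PRN (AT3G59220), a pirin, 289 and 68.3 RPKM. ABR1 (AT5G64750), an ERF factor, had 8.26 and 1.06 RPKM, and GAD4 (AT2G02010), a glutamate decarboxylase, 3.3 and 0.329 RPKM. GA20OX5 (AT1G44090), of gibberellin synthesis, had 5.05 and 0.654 RPKM. BGLU28, GAD4 and GA20OX5 passed the level filter only through the 2 h library, which fixed their direction. Among further abundant genes, AT5G62350, an invertase and pectin methylesterase inhibitor-like gene, had 165 and 57.0 RPKM. AT5G16010, a steroid dehydrogenase-like gene, had 195 and 69.6 RPKM, and AT3G09440, a cytosolic HSP70, 406 and 156 RPKM.

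Proteins of cold and dehydration formed the most abundant group among the genes that were lower. RD29A (AT5G52310), annotated as LTI78, had 559 RPKM at 2 h and 120 RPKM at 12 h (4.66-fold lower, 4.50 to 4.83). The dehydrin LTI30 (AT3G50970) had 1157 and 352 RPKM (3.29-fold lower, 3.16 to 3.42) and LEA14 (AT1G01470) 498 and 202 RPKM. LEA7 (AT1G52690) had 102 and 20.7 RPKM, LEA4-5 (AT5G06760) 93.6 and 26.5 RPKM and HVA22D (AT4G24960), an endoplasmic reticulum protein induced by abscisic acid, 209 and 59.7 RPKM. By product name, 11 of 46 dehydrins, LEA and cold-regulated proteins were lower and none was higher. The family nevertheless stayed among the most abundant at both times, with 18321 and 14744 summed RPKM and 10 of the 100 leading genes. COR47, ERD14 and AT1G54410, the leading dehydrins, differed by 1.12- to 1.15-fold.

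The cold and abscisic acid lists gave the following values, whose part in the levels above was not tested. CBF proteins bind the DRE element of cold-responsive promoters, and all 3 CBF genes had ratios above 1. CBF2 (AT4G25470) had 4.37 and 17.5 RPKM (4.00-fold, 2.98 to 5.43) and CBF1 (AT4G25490) 1.31 and 3.11 RPKM. NCED3 (AT3G14440), the rate-limiting enzyme of abscisic acid synthesis, was 3.44-fold higher (2.95 to 4.02). Of 20 genes of the abscisic acid list 3 were lower, RD29A, LEA7 and LEA4-5, and NCED3 alone was higher. HB-7, a homeobox gene induced by abscisic acid, had 45.8 and 43.9 RPKM.

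The upstream sequence of the dehydration genes is shown because RD29A and LTI30 carry repeats of the DRE core. The 250 bases before the annotated gene start were read from the TAIR10.1 assembly through the RefSeq annotation, RD29A at chr5:21240467-21240716 on the plus strand and LTI30 at chr3:18940393-18940642 on the plus strand. Capitals mark CCGAC, the DRE core, on either strand.
RD29A: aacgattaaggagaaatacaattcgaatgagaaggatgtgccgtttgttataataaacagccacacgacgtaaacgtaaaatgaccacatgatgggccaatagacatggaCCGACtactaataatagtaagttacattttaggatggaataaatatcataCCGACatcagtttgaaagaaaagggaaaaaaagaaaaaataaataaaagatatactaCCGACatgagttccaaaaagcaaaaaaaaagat
LTI30: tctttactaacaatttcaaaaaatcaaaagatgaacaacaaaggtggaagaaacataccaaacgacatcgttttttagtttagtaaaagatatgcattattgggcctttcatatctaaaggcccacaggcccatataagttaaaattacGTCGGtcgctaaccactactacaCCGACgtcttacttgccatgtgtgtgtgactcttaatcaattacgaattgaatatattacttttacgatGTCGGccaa
Both windows held the core 3 times, in RD29A with first bases at -140, -90 and -33 from the gene start and in LTI30 at -101, -78 and -9. It was present in 8 of the 11 windows of dehydrin, LEA and cold-regulated genes lower at 12 h, in 10 of 35 of those that did not differ and in 3178 of 26711 windows of nuclear protein-coding genes (11.9%). The core of the abscisic acid response element, ACGTG, was present in 8 of the 11 windows, 14 of the 35 and 23.1% of all windows. These motifs were chosen after the values had been seen, and a match is a run of letters and not a shown binding site.

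The heat shock list was lower at 12 h in 9 of 19 compared genes and higher in none, with a median log2 ratio of -0.98. Among members with at least 5 RPKM in either library the median was -0.62. HSFA2 (AT2G26150), the heat shock factor that sustains the response, had 30.1 RPKM at 2 h and 6.64 RPKM at 12 h (4.53-fold lower, 3.70 to 5.60). HSP17.8 (AT1G07400), a small heat shock protein, had 21.9 and 2.48 RPKM (8.85-fold lower, 5.82 to 14.1), and HSP90.1 (AT5G52640) 51.0 and 13.7 RPKM. ROF2 (AT5G48570), a co-chaperone, had 48.0 and 15.2 RPKM and FES1A (AT3G09350), an HSP70-binding protein, 32.6 and 10.7 RPKM. HSP23.6 of mitochondria had 19 reads at 2 h and 1 at 12 h (15.5-fold lower, 2.47 to 645). Absolute levels were modest, the list summing to 534 RPKM at 2 h and 349 RPKM at 12 h, and MBF1C, a co-activator of the response, had 83.0 and 65.5 RPKM. Small heat shock proteins by product name, which overlap this list, had 10 of 31 lower. In the narciclasine libraries HSFA2 had 1.70 and 2.56 RPKM and HSP17.8 1.63 and 2.33 RPKM, so that the control library at 2 h was the highest of the 4 for both.

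Upstream windows are shown for HSFA2 and HSP17.4, a pair from the 3 lower genes with a full heat shock element, the repeat that heat shock factors bind, spelled GAANNTTCNNGAA and searched on both strands. HSFA2 was read at chr2:11135374-11135623 on the plus strand and HSP17.4 (AT3G46230) at chr3:16984868-16985117 on the minus strand, with the element in capitals.
HSFA2: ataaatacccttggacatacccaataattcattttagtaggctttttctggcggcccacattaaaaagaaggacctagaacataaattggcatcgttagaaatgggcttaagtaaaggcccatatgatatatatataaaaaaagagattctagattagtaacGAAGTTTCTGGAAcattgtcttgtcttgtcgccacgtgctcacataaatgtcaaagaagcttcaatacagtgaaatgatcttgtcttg
HSP17.4: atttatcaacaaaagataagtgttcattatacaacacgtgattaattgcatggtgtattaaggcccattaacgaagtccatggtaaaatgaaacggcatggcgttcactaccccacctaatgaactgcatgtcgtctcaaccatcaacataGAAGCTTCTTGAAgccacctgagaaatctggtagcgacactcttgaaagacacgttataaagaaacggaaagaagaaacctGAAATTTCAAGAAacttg
The element began at -88 in HSFA2 and at -99 and -18 in HSP17.4, a gene with 4.94 RPKM at 2 h and 2.44 RPKM at 12 h. It was present in 3 of 9 windows of heat shock genes that were lower (the third being HSP17.6C, at -53), in 2 of 10 of those that did not differ and in 105 of 26711 windows of all nuclear protein-coding genes (0.393%). HSP17.8, with the largest well-measured ratio, held no match in its window.

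Chaperones of the endoplasmic reticulum were lower as a list, with 13 of 14 ratios under 1 and a median log2 ratio of -0.78, although only 3 met the rule. BIP2, the luminal HSP70, had 450 and 225 RPKM, and CNX1, calnexin, had 398 and 232 RPKM, both short of 2-fold. The co-chaperone ERDJ3A (AT3G08970) had 16.0 and 4.71 RPKM (3.40-fold lower, 2.76 to 4.21), UTR1 (AT2G02810), a nucleotide sugar transporter, 23.1 and 10.4 RPKM and TIN1 (AT5G64510) 5.87 and 2.50 RPKM. BZIP60, the factor that induces such genes, was the member with a ratio above 1, at 39.4 and 45.0 RPKM. List sums were 3006 RPKM at 2 h and 1850 RPKM at 12 h.

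Ribosomal protein genes showed a small shared difference that the 2-fold rule did not count. Of 329 compared genes with ribosomal protein names, 289 had ratios under 1, and the median log2 ratio was -0.47. Their summed RPKM was 81014 at 2 h and 57203 at 12 h, 11.2% and 7.95% of the total. Only AT4G01790 was counted lower and only PSRP3/1, whose product name is that of a plastid ribosomal protein, was counted higher, both at under 6 RPKM. All 6 ribosome biogenesis genes had ratios under 1 (median log2 ratio -0.52), for instance CBF5, the pseudouridine synthase of rRNA, with 161 RPKM at 2 h and a log2 ratio of -0.70.

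The quiescent centre gene WOX5 (AT3G11260), a homeobox factor that maintains the root stem cells, had 19.8 RPKM at 2 h and 1.91 RPKM at 12 h (10.4-fold lower, 6.33 to 18.1). It was the leading member of a meristem list in which 5 of 18 genes were lower and none higher, with 17 ratios under 1 and a median log2 ratio of -0.63. PLT3 (AT5G10510), annotated as AIL6, had 18.9 and 8.34 RPKM and PLT2 (AT1G51190) 5.80 and 2.72 RPKM; both are PLETHORA factors that set the meristem. SCZ (AT1G46264), a regulator of stem cell division, had 21.6 and 10.3 RPKM. RGF1 (AT5G60810), a peptide that maintains the meristem, rested on 17 and 3 reads (4.63-fold lower, 1.34 to 24.7). It passed the level filter only through the 2 h library. The radial patterning genes SHR and SCR were under the threshold, SHR with a log2 ratio of -0.38 and SCR with 28.1 and 21.6 RPKM. FEZ (AT1G26870), a NAC factor of root cap stem cells, was the only root cap marker that differed, at 4.09 and 1.32 RPKM. In the narciclasine libraries WOX5 was likewise low at 12 h, at 7.86 and 1.45 RPKM.

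Among transcripts of dividing cells, none of 23 G2/M genes and none of 16 DNA replication genes met the rule, against 5.75% of all genes. At that share lists of this size would hold few members or none. Their median log2 ratios were -0.05 and -0.24. All replication genes but MCM3 and RNR2A had ratios under 1, as most of the meristem list did. The G2/M genes ranged from -0.29 to 0.25, KNOLLE, the syntaxin of the cell plate, having 31.6 RPKM at 2 h and a log2 ratio of -0.26. Core histones (0 of 41), tubulins (0 of 18) and root hair growth genes (0 of 15) were likewise without a member past 2-fold. Common reference genes lay between -0.48 (UBQ5) and 0.31 (UBQ10), with PP2AA3 at -0.02.

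Some differentiation markers of suberin, the waxy polyester of the older endodermis, differed. All 5 suberin markers had ratios above 1, and CYP86A1 (AT5G58860), a fatty acid hydroxylase, and FAR4 (AT3G44540), a fatty acyl reductase, met the rule. CYP86A1 was 2.62-fold higher and reached 52.6 RPKM, and FAR4 had 5.38 and 14 RPKM. None of 8 endodermis, 7 xylem, 7 phloem or 5 epidermis markers differed. With 5.75% of all genes meeting the rule, lists this small give no contrast with suberin. The epidermis marker EGL3 came near, 1.98-fold lower (1.31 to 3.07). The green shoot list had 8 of 11 compared genes higher, 11 ratios above 1 and a median log2 ratio of 1.36. Its summed RPKM was 84.9 at 2 h and 198 at 12 h, below 67.6 in both narciclasine libraries. RCA, the activase of Rubisco, had 9.17 and 23.9 RPKM and PSAD1, a photosystem I subunit, 6.42 and 22.2 RPKM. These genes moved with the stress and defence lists, and their part in those results was not tested. Without all genes whose product names point to photosystems, chlorophyll, light harvesting or Rubisco, 716 genes were higher and 331 lower.

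Of 8 iron genes 2 were higher at 12 h and none lower, and of 9 phosphate, sulphate and potassium genes 3 were lower and none higher. Over all genes 3.98% were higher and 1.76% lower. The iron uptake genes IRT1 (AT4G19690), the iron transporter of the epidermis, and FRO2 (AT1G01580), the ferric reductase that supplies it, were higher at 12 h, with 15.5 and 49.8 RPKM (3.21-fold, 2.76 to 3.75) and 1.80 and 6.81 RPKM. FIT, the bHLH factor required for both, had 48.6 and 36.3 RPKM, and the iron store ferritin FER1 66.6 and 44.0 RPKM, both under the threshold. All 9 genes of the other list had ratios under 1, and none of its phosphate genes met the rule, PHT1;1 having 147 and 122 RPKM. HAK5 (AT4G13420), a high-affinity potassium transporter, had 10.1 and 2.12 RPKM (4.79-fold lower, 3.68 to 6.32), and the sulphate assimilation enzymes APR3 (AT4G21990) and APR1 (AT4G04610) had 228 and 95 RPKM and 103 and 49.6 RPKM. None of 10 nitrate genes met the rule, the nitrate transceptor NRT1.1 having 550 RPKM at 2 h and a log2 ratio of -0.72. With 5.75% of all genes meeting it, a list of that size would hold few members or none.

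Metabolic and hormone lists ranged from flavonoid, where several compared genes met the rule, to auxin transport, where none did. Over all genes the share that met it was 5.75%. In the flavonoid pathway CHS (AT5G13930), CHI (AT3G55120) and F3'H (AT5G07990), which make and hydroxylate the flavonoid skeleton, were higher, CHS with 383 and 858 RPKM. F3H (AT3G51240) was counted lower on 35 and 14 reads, and no longer under 2 other scalings (log2 ratio -0.99). It passed the level filter only through the 2 h library. In the hypoxia list ADH1 (AT1G77120), alcohol dehydrogenase, had 18.0 and 2.31 RPKM (7.78-fold lower, 5.61 to 11.1), while PDC1, its partner in fermentation, had 45.2 RPKM at 2 h and a log2 ratio of -0.58. HRE2, annotated as ERF71, was also lower at 5.03 and 1.85 RPKM, and SAD6, annotated as FTM1, was higher at 0.736 and 1.68 RPKM. SAD6 passed the level filter only through the 12 h library. The sugar starvation list had 3 of 11 compared genes higher and 1 lower, with 9 ratios above 1 and a median log2 ratio of 0.88 (0.67 with 1 added to each RPKM). ASN1 (AT3G47340), asparagine synthase, was 6.01-fold lower (4.29 to 8.63), and BGAL4 (AT5G56870), ATL8 (AT1G76410) and TPS9 (AT1G23870) were higher, BGAL4 with 154 and 354 RPKM. ACS5 (AT5G65800) and ACS6 (AT4G11280), ACC synthases of ethylene production, had 3.96 and 10.7 RPKM and 31.4 and 71.6 RPKM. CKX4 was the only cytokinin gene and GH3.3 the only auxin response gene that met the rule, both at under 2.5 RPKM. CKX4 passed the level filter only through the 12 h library and GH3.3 only through the 2 h library. None of 12 auxin transport genes met the rule.

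Glutathione transferases, which conjugate electrophiles, had 7 of 48 compared genes lower and 1 higher, against 1.76% and 3.98% of all genes. The family's median log2 ratio was -0.06, with 20 ratios above 1 and 28 under. Its summed RPKM was 9039 at 2 h and 8824 at 12 h. Scarce lower members were GSTU3 (3.29 and 1.28 RPKM), GSTU11 (2.30 and 1.12 RPKM) and GSTU12 (1.92 and 0.723 RPKM). GSTU12 passed the level filter only through the 2 h library. GSTU5 (AT2G29450) had 217 and 102 RPKM, ERD9 (AT1G10370) 64.3 and 24.3 RPKM and GSTF6 (AT1G02930) 69.9 and 32.4 RPKM. GSTF12 (AT5G17220), which is tied to anthocyanin transport, was the higher member at 0.531 and 3.68 RPKM. It passed only through the 12 h library.

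The genes of both clock lists lay under 2-fold between the libraries. None of 12 morning-phased and none of 13 afternoon and evening genes met the rule, so no clock promoter was examined. Over all genes 5.75% met it, a share at which lists of this size would hold few members or none. The medians leaned in opposite directions, -0.43 with 10 of 12 ratios under 1 for the morning list and 0.33 with 11 of 13 above 1 for the other. LHY had 4.26 and 2.36 RPKM, CCA1 5.97 and 3.89 RPKM and EPR1, also called RVE7, 7.60 and 4.04 RPKM. PRR9 had 4.09 and 3.15 RPKM, PRR7 10.7 and 10.6 RPKM, RVE8 6.01 and 5.89 RPKM, RVE4 (annotated as LCL1) 17.0 and 19.8 RPKM and RVE1 3.18 and 3.71 RPKM. The LNK genes, co-activators of the morning factors, had 17.1 and 12.9 RPKM (LNK1), 6.47 and 4.73 RPKM (LNK2), 2.26 and 1.52 RPKM (LNK3) and 3.27 and 1.77 RPKM (LNK4). ELF4 (AT2G40080), a subunit of the evening complex, had the largest evening ratio among well-expressed members, at 154 and 263 RPKM (1.71-fold, 1.60 to 1.83).

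Its partners ELF3 and LUX (annotated as PCL1) had 20.8 and 26 RPKM and 56.2 and 68.3 RPKM, and BOA, a homologue of LUX, 7.68 and 8.70 RPKM. TOC1 had 31.5 and 43.7 RPKM, PRR5 10.9 and 13.7 RPKM, PRR3 3.47 and 5.43 RPKM and GI 26.2 and 29.4 RPKM. The blue-light F-box genes ZTL and FKF1 had 12.7 and 16.1 RPKM and 4.95 and 7.29 RPKM. CHE (annotated as TCP11) had 26.2 and 28.2 RPKM and CDF1 3.85 and 3.64 RPKM. Apart from GRP7, given above, ELF4 was the most abundant clock gene at both times.

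The narciclasine libraries at 12 h and 2 h, which share no library with the controls, were compared for the same 18775 genes. There 1206 genes (6.42%) were higher and 3018 (16.1%) lower at 12 h. Of the 748 genes higher in the controls, 263 (35.2%) were also higher in that pair, and they made up 21.8% of its higher genes. Of the 331 lower in the controls, 152 (45.9%) were lower there too, 5.04% of its lower genes. Opposite calls were given by 63 of the 748 (8.42%) and 30 of the 331 (9.06%).

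Genes that were higher in both pairs included PYK10, PBP1, JAL22, JAL31 and JAL33 of the ER body list and IRT1 and FRO2 of the iron list. JAL35 and TSA1, higher in the controls, were under the threshold there. JAL33 had 77.1 and 438 RPKM in the narciclasine libraries, PYK10 2115 and 5399 RPKM, MLP328 44.8 and 293 RPKM and IRT1 5.39 and 142 RPKM. Among lower genes RNS1 had 84.7 RPKM at 2 h there and was 4.88-fold lower at 12 h and RD29A 360 and 49.9 RPKM. The stress ERF list, with 7 of 11 higher in the controls, had 2 higher in the narciclasine pair (median log2 ratio 0.16), where ERF6 already stood at 61.4 RPKM at 2 h. The heat shock list had 1 member lower in that pair (median 0.14), and the green shoot list none higher (median -0.47). All 23 G2/M genes were lower there, against none in the controls. No difference between the pairs was tested.

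**Figure D5:**
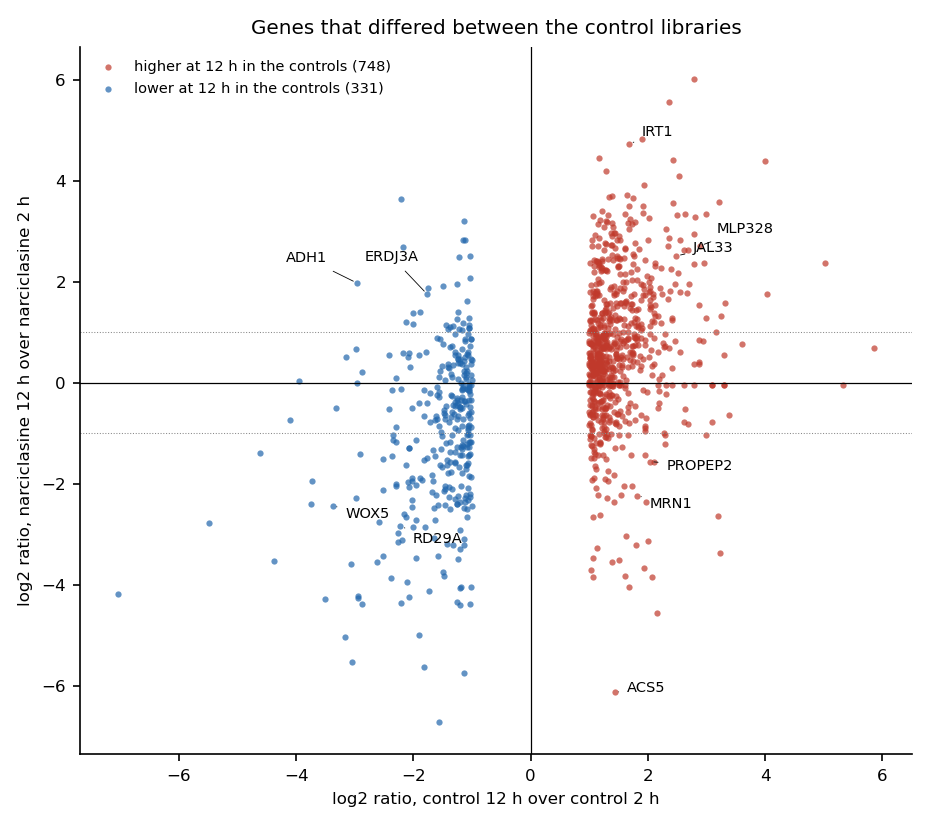
Log2 ratio of RPKM, 12 h over 2 h, in the narciclasine libraries (vertical) against the control libraries (horizontal) for the 1079 genes that differed between the controls, with dotted lines at 2-fold in the narciclasine pair and genes with 0 reads in a library drawn at their bound. Red points are the 748 genes higher and blue points the 331 lower in the controls; ADH1 and ERDJ3A lie in the upper left and ACS5, MRN1 and PROPEP2 in the lower right.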

How the data were processed

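RNA-seq libraries of excised root tips, 1 for each of 4 groups, followed the standard Illumina procedure, per the labels' protocols. Per the submitters' processing notes, Bowtie 0.12.2 and edgeR were used and mm8 was the build. That is a mouse build, so the true one is unclear and no coordinates were taken from the files. The deposited values are RPKM that the authors computed, per the file headers. How reads were counted and whether strand was used is not given in the sources used here, and reads of overlapping genes (44 of the 177 genes chosen for naming overlap another) and of near-identical paralogs are uncertain. Of 33602 identifiers 32835 matched the TAIR10.1 annotation. Chloroplast and mitochondrial loci did not match and are not named.

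Library sizes and reads were recovered from the RPKM values, which are multiples of what 1 read is worth. Whole reads were obtained for all 24396 genes above 0 (largest deviation 1.7e-10). Reads carry an unknown whole multiplier per gene, so intervals may be too wide. The 12 h library is the smaller, with 11880278 reads against 14541412. Sequenced reads are not independent molecules. Ratios of RPKM equal ratios scaled by library size, and the trimmed mean of M values (TMM), median of ratios and upper quartile were alternatives.

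The members, 35 gene lists and 13 product-name families were chosen with earlier results of these data known. A further 2 lists, 3 product-name groups and the DRE and abscisic acid motifs were added after values were seen. The text draws on genes chosen by rule. These were the 20 most abundant, 14 higher and 14 lower symbol-bearing coding genes with the interval bound farthest from 1, the 10 largest ratios each way at 100 RPKM or more, up to 5 differing members a list or family, and all clock genes. Other members named beside them were picked after their values were seen. Recovery and calls were tested on simulated data. The simulated reads held counting error only, so they cannot show how calls fare under variation between replicates. Intervals came from scipy 1.17.1 and figures from matplotlib 3.10.9, under Python 3.11.15 with pandas 2.3.3.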

Additional observations from a re-analysis of the deposited data

Results flagged for a closer look

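Of the genes chosen for naming, 11 differed in opposite directions with time in the control and narciclasine libraries, each by at least 2-fold with an interval that excluded 1. The difference between the pairs was not tested, and each value below is the control log2 ratio minus the narciclasine log2 ratio, 12 h over 2 h in both. Genes higher at 12 h in the controls and lower in narciclasine were ACS5 (AT5G65800, 7.57), with 3.96 and 10.7 RPKM in the controls against 2.54 and 0.0362 RPKM, MRN1 (AT5G42600, 4.05), PROPEP2 (AT5G64890, 3.6) and the peroxidase gene AT2G39040 (3.58). Genes lower in the controls and higher in narciclasine were ADH1 (AT1G77120, -4.93), with 18.0 and 2.31 RPKM in the controls against 8.78 and 34.4 RPKM, F3H (AT3G51240, -3.54), ERDJ3A (AT3G08970, annotated ATERDJ3A, -3.51), EXPA10 (AT1G26770, -3.17), the small heat shock protein gene AT1G59860 (-2.48), ERD9 (AT1G10370, -2.45) and GSTU4 (AT2G29460, -2.21).

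MRN1 had 14.7 and 51.7 RPKM in the controls and 22.2 and 4.69 RPKM in narciclasine, while its cluster neighbour CYP705A12 had 18.0 and 24.2 RPKM in narciclasine. ERDJ3A had 2.1 and 7.07 RPKM in narciclasine, below the 16.0 RPKM of the control library at 2 h.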

How the results depend on the processing

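The counts of genes higher and lower, 748 and 331 (1079 in all), kept within 1.5-fold under TMM (803 and 297), median-of-ratios and upper-quartile scaling, with 1 RPKM required in both libraries, without a filter, without the interval, with reads multiplied to the annotated length, and without organelle loci. Counts moved further under stricter or looser rules. They were 492 and 166 (658 in all) with 1 added to each RPKM, 497 and 167 (664) with at least 5 RPKM in either library, 1784 and 1247 (3031) at 1.5-fold, 120 and 70 (190) at 4-fold, and 303 and 105 (408) with the interval wholly beyond 2-fold. Of the genes chosen for naming, F3H and AT4G01790 lost their call under TMM and median-of-ratios scaling, and 11 lost it with 1 added to each RPKM. The other scalings shifted every log2 ratio by 0.02 to 0.04. That turned the sign of the jasmonate synthesis, hypoxia and core histone medians, which lay within 0.04 of 0. The phloem median was -0.21, and 0.07 at 5 RPKM. That filter also took the heat shock median from -0.98 to -0.62, the cold CBF median from 1.25 to 2.00 and the flavonoid median from 0.66 to 0.84, with fewer genes compared, and 1 added to each RPKM took the sugar starvation median from 0.88 to 0.67. The number of lists and families whose median lay at least 0.5 from that of all genes was 16, and 15 to 16 under the alternatives. Genes that held a common call in control and narciclasine pairs were 415, and 431 under TMM.

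No paired analysis was possible because each group held 1 library, which also leaves no replicate to drop. At the depth of these libraries a gene near 1 RPKM rests on few reads, and a 2-fold difference there was often not detectable.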

Other observations

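The share of genes that differed depended on level. Among genes with a mean under 3 RPKM, 7.18% were higher and 4.70% lower at 12 h, against 2.55% and 1.18% between 100 and 300 RPKM and 4.17% and 0.735% at 300 RPKM or more.

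Chloroplast loci, which could not be named from the annotation, had 26 of 33 ratios under 1 with a median log2 ratio of -0.54 and a summed RPKM of 746 at 2 h and 492 at 12 h. That is the opposite direction to the nuclear genes of the green shoot list. The 16 mitochondrial loci had a median log2 ratio of 0.12.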
